A study of Mus musculus with 12 samples.

Results

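Id1, Id2, Id3 and Id4 are the inhibitor of DNA binding genes, and their transcripts were followed here in all 12 libraries of a study of neural stem cells that lack 1 of the E proteins. The 4 genes were taken by symbol and Ensembl ID, out of 37620 gene IDs counted, and all 4 passed the filter on low counts in every comparison. The cells, labelled neuronal stem cells, came from E14.5 mouse embryos of the C57BL/6J background and were kept dividing in culture with FGF-2 and EGF. Stranded mRNA libraries were sequenced. There were 3 libraries in each of 4 groups: E12KO (genotype E12-/-), its wild-type litter mates E12wt (E12+/+), E47KO (E47-/-) and its wild-type litter mates E47wt (E47+/+). E12 and E47 are splice forms of the single gene Tcf3, so a count over the whole gene cannot check these labels. The knockout alleles are not described in the labels. Nothing there tells separate embryos or cultures from repeat libraries, so p-values measure the spread between these libraries, which may be technical. Only for E47wt do the sex-linked transcripts given below show that the libraries are not all repeats of a single source.

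Id proteins have the helix-loop-helix (HLH) part that lets bHLH transcription factors pair, and lack the basic part that touches DNA. An Id protein that pairs with an E protein therefore keeps it off its E-box sites, and also off its partnership with neural bHLH factors. In the developing brain Id genes are known as targets of bone morphogenetic protein (BMP) signalling through Smad proteins, and as factors that hold neural stem cells in division and delay neuronal and oligodendrocyte differentiation. Loss of 1 E protein thus removes a binding partner of all 4 Id proteins, and the comparisons ask whether the Id transcripts themselves differ in such cells.

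Id1 (ENSMUSG00000042745) lies on chromosome 2 from 152736251 to 152737410 on the plus strand, in build GRCm38. Id2 (ENSMUSG00000020644) lies on chromosome 12 from 25093799 to 25097140 on the minus strand. Id3 (ENSMUSG00000007872) lies on chromosome 4 from 136143497 to 136145755, and Id4 (ENSMUSG00000021379) on chromosome 13 from 48261228 to 48266026, both on the plus strand. These coordinates come from the GENCODE M21 annotation, whereas the counts were made on build mm9. In that annotation Id4 overlaps 2 genes of the opposite strand, A330033J07Rik by 1396 bases and Gm49291 by 1364 bases, and no gene overlaps the other Id genes. Reads on the strand of the gene were used here, and reads of the other strand made up 0.240% of the strand-assigned reads at Id4 and at most 0.122% at Id1, Id2 and Id3. Counting both strands together gave 93.8% of the stranded Id4 reads.

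Stretches upstream of the RefSeq starts of Id2 and Id4 (build GRCm38.p6) are shown because they hold the only matches, among the Id2, Id3 and Id4 windows of 250 bases upstream of the start, to an E-box core (CANNTG, the class of site that E proteins bind) or to the palindrome GGCGCC (known as a Smad-bound element in Id promoters). Id1 has no entry in the promoter table that was used. Capitals mark the motif, each stretch is 30 bases long and runs 5′ to 3′, and both motifs were searched on both strands.
Id2 E-box, chr12:25096271-25096300, minus strand: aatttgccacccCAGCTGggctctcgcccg
Id2 palindrome, chr12:25096306-25096335, minus strand: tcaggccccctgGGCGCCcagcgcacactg
Id4 palindrome, chr13:48260956-48260985, plus strand: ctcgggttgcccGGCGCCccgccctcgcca
The Id2 E-box is CAGCTG and starts 196 bases upstream of the RefSeq start. GENCODE M21 places the start of Id2 further upstream, so both Id2 stretches lie inside the Id2 locus given above, and 161 of the 250 bases of the Id2 window fall in GENCODE exons, as do all 250 of the Id3 window and 0 of the Id4 window. Windows of the same length hold CANNTG in 66.2% of 32851 RefSeq promoters, CAGCTG in 13% and GGCGCC in 9.59%. A match is a description of these letters and not a binding site.

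The libraries held 34515297 to 56835783 reads on genes, where 3 reads, taken as the floor, equal 0.0534 to 0.0828 CPM (counts scaled to library size over all 12 libraries). Every Id value was far above that floor. Neural stem cell markers were high in every library (Fabp7, Ptprz1, Vim, Nes, Slc1a3 and others, 10 genes that summed to 9368 to 11181 CPM). The 10 endothelial markers, a cell type known for Id1 and Id3, summed to 3.26 to 8.51 CPM, with Cldn5 and Cdh5 at means of 0.0055 and 0.0175 CPM, and the 10 microglia markers to 0.463 to 1.29 CPM. The 8 erythroid markers summed to 0.224 to 0.773 CPM. On the first principal component of all genes, with 31.2% of the variance, E47KO replicate 2 (73.6) lay apart from the other 11 libraries (-30.6 to 14.7), and on the second E12wt replicate 3 did (50.5, against -25.4 to 20.1). In the E47 line, E47wt replicates 1 and 3 had 891 and 1114 CPM of the X-inactivation transcript Xist, while E47wt replicate 2 and all 3 E47KO libraries had 197 to 246 CPM of Y-linked transcripts. Every library of the E12 line had 1015 to 1509 CPM of Xist and at most 0.149 CPM of Y-linked transcripts. Sex therefore goes partly with genotype in the E47 line, and partly with line in the comparisons between lines.

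Id3 was the most abundant member. Counts set against the length of all annotated exons gave a mean over the 12 libraries of 82.9 ± 32.8 CPM per kb for Id3, 31.1 ± 10.8 for Id1, 21.3 ± 5.99 for Id2 and 3.22 ± 1.42 for Id4 (SD, n = 12). The order was the same with the longest annotated transcript as the length, at 116, 31.1, 26.3 and 3.22 CPM per kb. All 4 genes were well covered, with 722 to 2053 reads per library for Id1, 1210 to 2833 for Id2, 2742 to 10058 for Id3 and 312 to 994 for Id4. Across all 12 libraries, which mix the genotypes, the highest value was 4.41 times the lowest for Id1, 3.44 times for Id2, 4.38 times for Id3 and 3.97 times for Id4. Within single groups this range ran from 1.07 times (Id2 in E12wt) to 4.41 times (Id1 in E47KO).

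**Figure D1:**
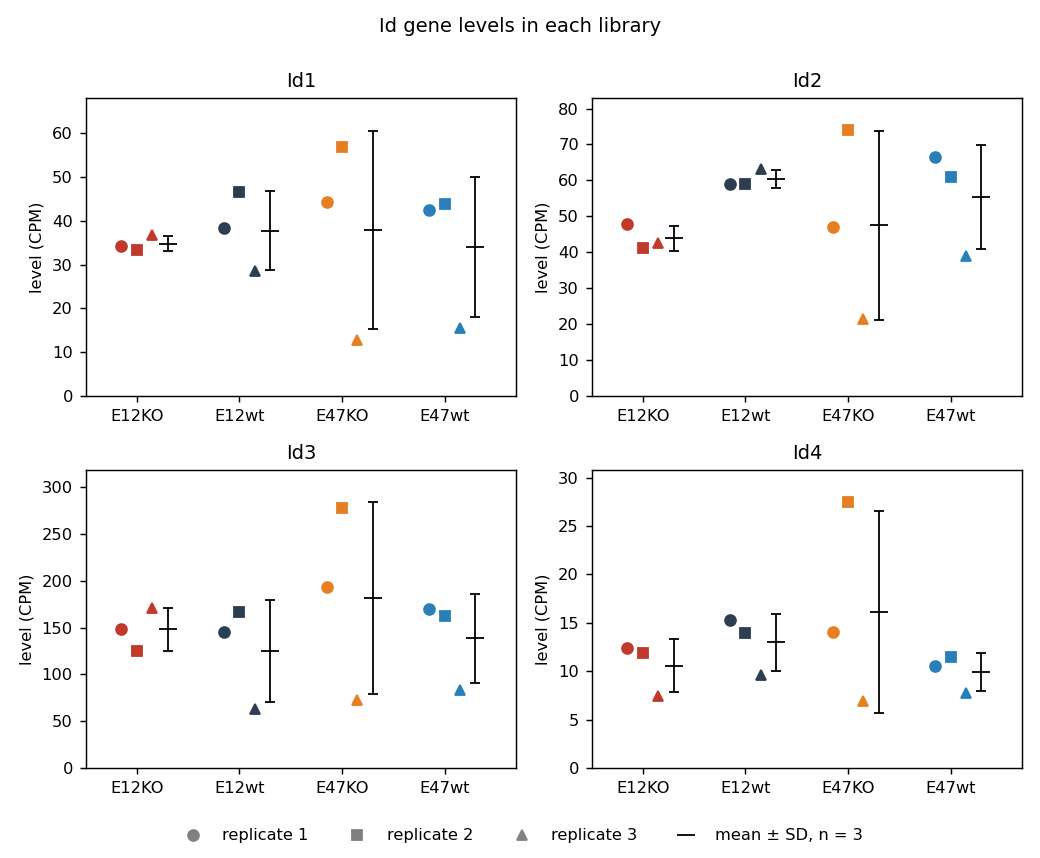
Level of each Id gene in CPM (vertical axis, starting at 0) in the 3 libraries of E12KO, E12wt, E47KO and E47wt; marker shapes give the replicate, and the bar beside them is the mean ± SD. Id2 was at 41.3 to 47.9 CPM in E12KO, below all 3 E12wt libraries at 58.9 to 63.2 CPM, while E47KO replicate 2 was the highest and E47KO replicate 3 the lowest of all 12 libraries for Id1, Id2 and Id4.

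Loss of E12 was accompanied by a lower Id2 level. Id2, known for holding back the differentiation of neural progenitors, had 47.9, 41.3 and 42.5 CPM in E12KO libraries, against 59.1, 58.9 and 63.2 CPM in E12wt libraries. The groups did not overlap, and within each the libraries lay close together. The mean was 43.9 ± 3.53 CPM in E12KO and 60.4 ± 2.41 CPM in E12wt (SD, n = 3 each), a fitted log2 fold change of -0.45 ± 0.08 (SE) or a level 0.730 times that of wild type, with a 95% interval of 0.648 to 0.823.

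Whether this difference passed depends on the tool. edgeR's quasi-likelihood (QL) test ranked Id2 16th of 14755 genes and did not call it after Benjamini-Hochberg (BH) adjustment over all of them (adjusted p = 0.223). It called 6 genes, 0.0407% of those tested, and 0 of the 4 Id genes. Before adjustment Id2 alone of the 4 was under 0.05, as were 8.96% of all genes. DESeq2 called Id2 lower (log2 fold change -0.46 ± 0.09 SE, BH-adjusted p = 0.000335), among 76 genes or 0.515% of those tested, of which 0.319% were lower. In the authors' deposited table for E12KO against E12wt, Id2 was 10th of 12089 genes by p, with a log2 fold change of -0.46 ± 0.09 and an adjusted p of 0.000376; 0.513% of the genes of that table pass at 0.05. These fits use the same libraries and are not independent of each other. Of all genes tested, 7.17% had every E12KO library below every E12wt library.

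Leaving out any 1 library kept the Id2 log2 fold change between -0.52 and -0.42 with edgeR and with DESeq2. DESeq2 called it in all 6 of these fits, with BH-adjusted p from 1.55e-05 (without E12KO replicate 1) to 0.0355 (without E12KO replicate 3), and edgeR QL in none of them. With all 12 libraries in 1 edgeR fit, whose spread takes in the wide E47 groups, the SE of Id2 was 0.33 and the BH-adjusted p rounded to 1.

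Some markers of other cells differed in the same comparison. The 12 mesenchymal and meningeal markers summed to 9.99 to 11.8 CPM in E12KO and 13.5 to 20.1 CPM in E12wt, and edgeR QL called 3 of 7 tested lower (Col1a1, Col1a2 and Bgn, matrix genes of fibroblasts) and none higher, while 9 of the 12 averaged under 1 CPM. DESeq2 called 5 of these 7 lower, the same 3 with Col3a1 and Postn, and none higher. Foxc1 of the same list was higher without overlap, at 8.28 ± 0.28 CPM in E12KO and 6.10 ± 1.53 CPM in E12wt, and was called by neither tool. The 10 oligodendrocyte lineage markers summed to 227 to 281 CPM in E12KO and 290.3 to 417 CPM in E12wt. The 417 CPM was that of E12wt replicate 3, and replicates 1 and 2 summed to 290.3 and 309 CPM. Of the 8 tested, 7 were below 0, 4 had an unadjusted p under 0.05 and none was called by either tool. Over all genes in this comparison, 8.96% had an unadjusted p under 0.05 and the median log2 fold change was 0.00. Of 10 neuron markers tested, 9 were below 0, 5 had an unadjusted p under 0.05, and DESeq2 alone called 1. The neuron list summed to 1291 to 1454 CPM in E12KO and 1338 to 1415 CPM in E12wt, with overlap. Of 11 astrocyte markers tested, 8 were above 0, 3 had an unadjusted p under 0.05, and DESeq2 alone called 1, which was higher. The astrocyte list summed to 1255 to 1490 CPM in E12KO and 929 to 1394 CPM in E12wt, also with overlap. The neuron and astrocyte shifts were not particular to the E12 line. In E47KO, 9 of 10 neuron markers tested were below 0 (median -0.22) and 9 of 11 astrocyte markers above 0 (median 0.67). Of the oligodendrocyte lineage markers 3 of 8 were below 0 there, and of the mesenchymal and meningeal markers 4 of 5. Neither tool called any of these in E47KO. The part of these cells in the Id2 difference was not tested, and in bulk libraries fewer cells of a type and less RNA per cell cannot be told apart.

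The other 3 Id genes were called in E12KO by neither edgeR QL nor DESeq2. Id1, known for marking BMP-responsive stem cells, had 34.3, 33.3 and 36.6 CPM in E12KO libraries, against 38.2, 46.4 and 28.5 CPM in E12wt libraries. The knockout libraries lay inside the wild-type range, and the fitted difference was -0.11 ± 0.16 on the log2 scale, with a 95% interval of -0.47 to 0.24 (SE; edgeR QL, BH-adjusted p = 0.825). Without E12wt replicate 2 its sign turned (0.07).

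Id3, a close relative of Id1 in expression and function, had 149, 125 and 171 CPM in E12KO libraries, against 146, 167 and 63.4 CPM in E12wt libraries. The low wild-type value belongs to E12wt replicate 3, the library set apart on the second principal component. The log2 fold change of Id3 was 0.25 ± 0.30 with an interval of -0.43 to 0.93 (edgeR QL, BH-adjusted p = 0.801), and it was -0.08 ± 0.12 without that library. In the same library Id1 was also the lowest of its group, whereas Id2 was the highest.

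Id4, known for pacing the division of forebrain progenitors, had 12.4, 11.9 and 7.41 CPM in E12KO libraries, against 15.3, 14.0 and 9.62 CPM in E12wt libraries. The groups overlapped, and the log2 fold change was -0.29 ± 0.23 with an interval of -0.81 to 0.23 (edgeR QL, BH-adjusted p = 0.694). Leaving out a library in turn moved it between -0.47 (without E12wt replicate 3) and -0.08 (without E12KO replicate 3).

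No Id gene was called in the E47 line, in fits that did not pair libraries by replicate number, nor with the replicate number as a block. edgeR QL called 2 genes in this comparison, 0.0134% of 14965 tested, and DESeq2 12 (0.0888%). No Id gene had an unadjusted p under 0.05, which 2.19% of genes had, and none had groups without overlap, which 7.89% had. Id2 had 47.2, 74.1 and 21.5 CPM in E47KO libraries, against 66.4, 61.0 and 38.9 CPM in E47wt libraries. Of the knockout libraries, 1 lay above the range of the wild-type libraries, 1 inside it and 1 below it. The log2 fold change was -0.22 ± 0.42 with a 95% interval of -1.20 to 0.76 (edgeR QL, BH-adjusted p = 0.971), an interval that takes in the size seen in the E12 line as well as 0.

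Id1 had 44.2, 56.7 and 12.8 CPM in E47KO libraries, against 42.5, 43.7 and 15.6 CPM in E47wt libraries, a fitted log2 difference of 0.16 ± 0.57 (SE; edgeR QL, BH-adjusted p = 0.983). Id3 had 193, 278 and 73.2 CPM in E47KO libraries, against 169.6, 163 and 83.6 CPM in E47wt libraries, at 0.39 ± 0.47 (BH-adjusted p = 0.971). Id4 had 14.0, 27.4 and 6.90 CPM in E47KO libraries, against 10.5, 11.4 and 7.73 CPM in E47wt libraries, at 0.70 ± 0.46 with an interval of -0.37 to 1.77 (BH-adjusted p = 0.971). For each of these genes the groups overlapped, with a high E47KO replicate 2 and a low replicate 3 in both groups. Without E47KO replicate 2 the log2 fold changes were -0.26 for Id1, -0.06 for Id3 and 0.08 for Id4, and without E47KO replicate 3 that of Id2 was 0.15. The authors' deposited table for E47KO against E47wt also passes none of the 4 at an adjusted p of 0.05 (0.999 for each), where 0.0796% of its genes pass.

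**Figure D2:**
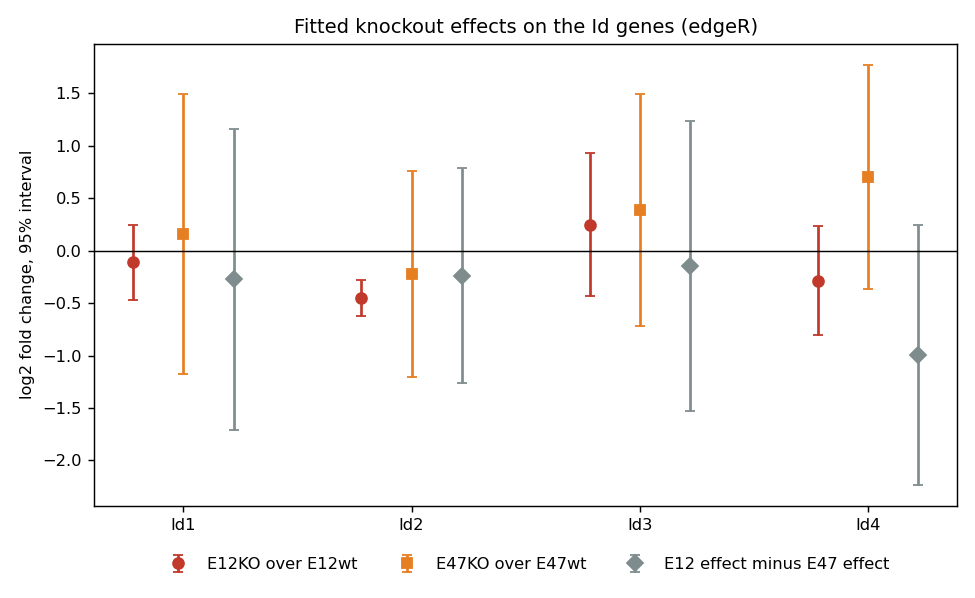
Fitted log2 fold change (vertical axis) of each Id gene with its 95% interval, for E12KO over E12wt, E47KO over E47wt, and the difference between both effects. The interval leaves 0 outside for Id2 in the E12 line (-0.63 to -0.28), without adjustment for the number of genes, and takes in 0 in the other 11 cases. The fits drawn did not pair libraries by replicate number.

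The knockout effects of the lines were not shown to differ for any Id gene, again in a fit without pairing. The E12 effect minus the E47 effect was -0.24 ± 0.47 on the log2 scale for Id2 (95% interval -1.26 to 0.79), -0.27 ± 0.66 for Id1, -0.14 ± 0.63 for Id3 and -0.99 ± 0.57 for Id4 (SE, interaction in all 12 libraries, edgeR QL, BH-adjusted p from 0.932 to 0.973). In that test edgeR QL called 0 genes (0% of 15277), 463 (3.03%) had an unadjusted p under 0.05, none of them an Id gene, and DESeq2 called 1 (0.00655%). Without E47KO replicate 2 the difference turned to 0.23 for Id2, 0.13 for Id1 and 0.29 for Id3. The intervals hold differences of over 1 log2 unit for each of the 4 genes.

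No Id gene was called between the wild types of the lines. E12wt over E47wt was 0.13 ± 0.18 for Id2, 0.15 ± 0.37 for Id1, -0.14 ± 0.38 for Id3 and 0.39 ± 0.21 for Id4 on the log2 scale (SE, edgeR QL, BH-adjusted p = 1.00 each), with the groups overlapping for all 4. This comparison called 0 of 14892 genes with edgeR QL (0%), with 568 (3.81%) at an unadjusted p under 0.05, and 7 with DESeq2 (0.047%). No overlap was seen for 9.52% of genes and for 0 of the 4 Id genes. Line, litter and handling cannot be told apart in it, and by sex-linked transcripts E47wt replicate 2 alone of these libraries was male. By group means, Id2 ranked in the order E12wt (60.4 CPM), E47wt (55.4), E47KO (47.6) and E12KO (43.9), and the libraries of neighbours in this order overlapped. For Id1 and Id4 the order was E47KO, E12wt, E12KO and E47wt, and for Id3 it was E47KO, E12KO, E47wt and E12wt, again with overlap between all neighbours.

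The mix of Id transcripts differed between knockout and wild-type libraries in both lines, a pattern chosen after its values were seen and given without a test. Id2 made up 19.7, 19.5 and 16.5% of the summed Id CPM in E12KO libraries, against 22.9, 20.6 and 38.4% in E12wt libraries. In the E47 line it made up 15.8, 17.0 and 18.8% in E47KO libraries, against 23.0, 21.9 and 26.7% in E47wt libraries. In each line every knockout library was below every wild-type library, also in the E47 line, where the Id2 level itself overlapped. The gap in the E12 line was narrow (19.7 against 20.6%), and the 38.4% belongs to E12wt replicate 3, where Id3 was the lowest of its group. Of all genes set against the summed Id level in this way, 1.15% were lower without overlap in the E12 line and 0.147% in the E47 line. Id2 is itself part of that sum and most genes are not tied to it, so these shares do not measure how unusual Id2 is.

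The share of Id3 was higher in knockout libraries, again without overlap, in the E12 line by a narrow gap (59.1 against 58.3%). How many of all genes were higher over the summed Id level in this way is not reported here, so this is a description only. It was 61.2, 59.1 and 66.4% in E12KO libraries, against 56.4, 58.3 and 38.5% in E12wt libraries, and 64.7, 63.7 and 63.9% in E47KO libraries, against 58.7, 58.3 and 57.3% in E47wt libraries. The shares of 1 library add up to 100%, so those of Id2 and Id3 are not separate measurements. Id2 over Id3 was 0.249 to 0.330 in E12KO and 0.353 to 0.996 in E12wt, and 0.244 to 0.294 in E47KO and 0.375 to 0.465 in E47wt. The shares of Id1 and Id4 overlapped between knockout and wild type in both lines, as did Id2 over Id1.

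Beside all genes tested in both lines, 12 of 14614 (0.0821%) were lower over Id3 in every knockout library of each line, and Id2 was 1 of them. In single lines the shares were 1.96% (E12) and 0.314% (E47). Set against the summed Id level instead, 3 genes (0.0205%) were lower in this way: Id2, the imprinted growth factor gene Igf2, and Tdg, the DNA glycosylase gene that edgeR QL called in both knockouts. Deviations of Id2 from its group means followed those of Id3 in the E47 line (r = 0.99), and Id2 is part of the sum. The median gene had r = -0.04 with Id3 over the 12 libraries. A gene that does not follow the divisor takes on its swings, so small shares are partly set by the divisor and do not rank Id2. The summed Id level itself ran from 212 to 258 CPM in E12KO and from 165 to 286 CPM in E12wt. It ran from 114 to 436 CPM in E47KO and from 146 to 289 CPM in E47wt, so the groups overlapped in both lines.

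**Figure D3:**
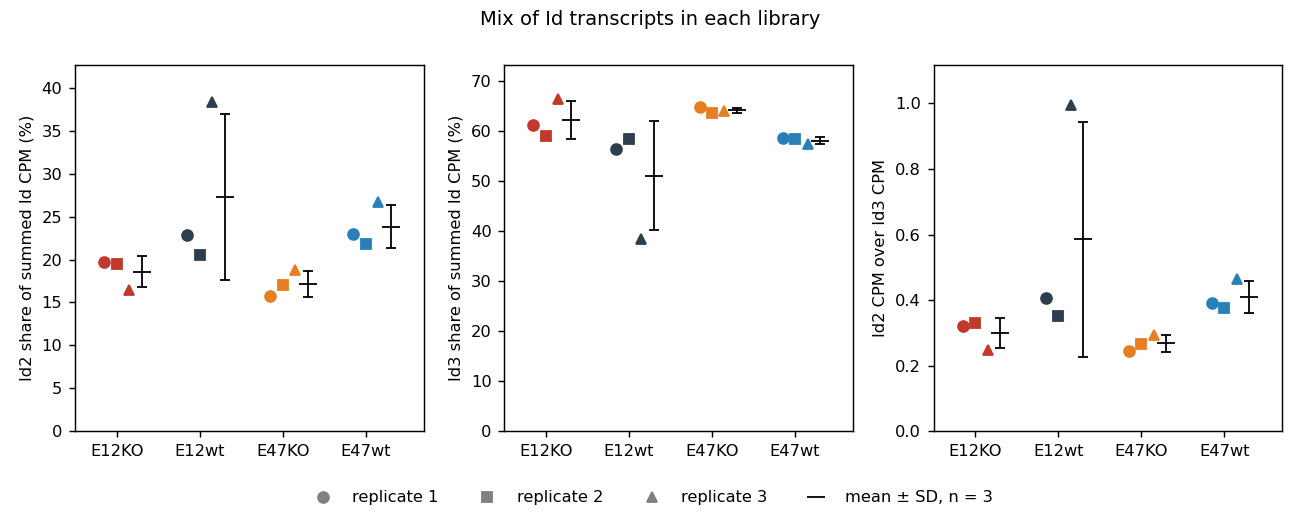
Share of Id2 (left) and of Id3 (middle) in the summed Id CPM of each library, in percent, and Id2 CPM over Id3 CPM (right), by group, with replicates as marker shapes and the mean ± SD beside them. Id2 shares were 16.5 to 19.7% in E12KO and 20.6 to 38.4% in E12wt. In the E47 line they were 15.8 to 18.8% in E47KO and 21.9 to 26.7% in E47wt.

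The Id genes varied together from library to library in the E47 line. In E47KO replicate 2 all 4 were at their highest of the 12 libraries, at 56.7 (Id1), 74.1 (Id2), 278 (Id3) and 27.4 CPM (Id4). In E47KO replicate 3 Id1, Id2 and Id4 were at their lowest, and E47wt replicate 3 was the lowest of its own group for all 4. Deviations from the group means on the log2 scale correlated at 0.89 to 0.99 between each pair of Id genes over the 6 E47 libraries. Over the 6 E12 libraries they correlated at 0.96 for Id1 with Id3, but at -0.42 for Id1 with Id2 and -0.36 for Id2 with Id3. These are descriptions over few libraries that also share their depth and RNA.

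The spread of the Id genes within the E47 groups was wider than that of most genes. In E47KO the SD of log2 CPM was 1.14 for Id1, 0.90 for Id2, 0.99 for Id3 and 0.99 for Id4, against a median of 0.28 over 15277 genes, and 94.5 to 97.6% of genes had a smaller SD. In E47wt it was 0.84 for Id1, 0.41 for Id2, 0.57 for Id3 and 0.30 for Id4, against a median of 0.15. In E12KO the SD was 0.07 for Id1, 0.11 for Id2, 0.23 for Id3 and 0.41 for Id4, against a median of 0.13. In E12wt it was 0.35 for Id1, 0.06 for Id2, 0.75 for Id3 and 0.35 for Id4, against a median of 0.13. Spread above the median of all genes was thus present in the E12 line too, for Id3 and Id4 in both groups and for Id1 in E12wt, while Id2 was below that median in both groups.

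**Figure D4:**
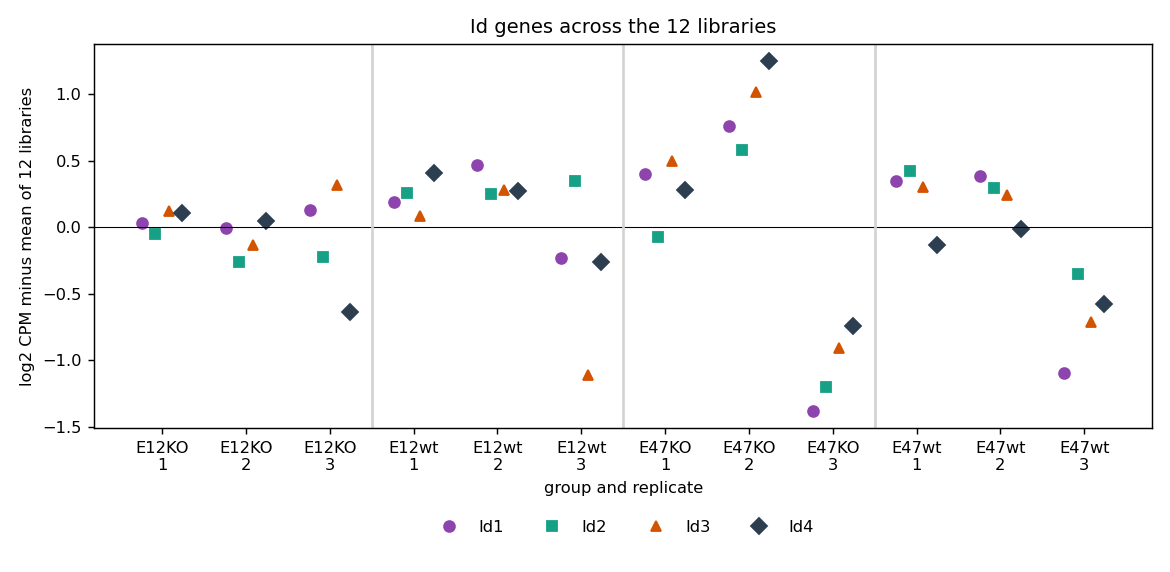
Log2 CPM of each Id gene in every library minus its own mean over the 12 libraries (vertical axis), with libraries by group and replicate along the horizontal axis. All 4 genes were highest in E47KO replicate 2 and low in replicate 3 of both E47 groups, while in E12wt replicate 3 Id3 was low and Id2 was not.

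Other genes followed the Id genes across the 12 libraries. Among 12588 genes with a mean of at least 1 CPM, the log2 level of Id1 was matched best by Gabarapl1, an autophagy gene (Pearson r = 0.96), Filip1l (0.96) and Hey2, a Notch-responsive repressor (0.96). That of Id2 was matched best by the protocadherin gene Pcdhb11 (0.95), Tmeff2 (0.95) and F3, which encodes tissue factor (0.94). For Id3 these were the linker histone gene Hist1h1c (0.97), Spata2 (0.97) and Epas1, which encodes a hypoxia-responsive factor (0.97), and for Id4 Wdr13 (0.96), AW011738 (0.96) and Smpd2 (0.96). Each r is a description over 12 libraries in which E47KO replicate 2 and the third replicates of the E47 line are the extremes, and 25 to 93 genes passed 0.9 for each Id gene.

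The partners of the Id proteins, the 3 E protein genes, varied far less. Tcf3, counted over both splice forms, had 92.1, 72.9 and 101 CPM in E12KO libraries, against 77.1, 82.4 and 75.9 CPM in E12wt libraries, with overlap. It had 117, 113 and 106 CPM in E47KO libraries, against 84.2, 75.9 and 97.2 CPM in E47wt libraries, without overlap. The fitted log2 differences were 0.18 ± 0.11 and 0.39 ± 0.12 (SE; edgeR QL, BH-adjusted p = 0.605 and 0.971). Tcf4 was at 0.07 and -0.02 and Tcf12 at 0.00 and -0.09 in the E12 and E47 knockouts, and neither edgeR QL nor DESeq2 called any of the 3. Of these 6 tests, 1 had an unadjusted p under 0.05, that of Tcf3 in E47KO. All genes tested had such a p in 8.96% of cases in E12KO and 2.19% in E47KO.

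Per kb of exon, summed Id transcripts over summed E protein transcripts gave a ratio of 1.54, 1.32 and 1.64 in E12KO and 1.65, 1.76 and 1.11 in E12wt. In the E47 line it gave 1.81, 2.58 and 0.711 in E47KO and 1.80, 1.77 and 0.898 in E47wt. The groups overlapped in both lines. The size of this ratio depends on the length used: with the longest transcript it ran from 0.403 to 1.44 over the 12 libraries.

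Of all genes tested with edgeR QL, 8.96% in E12KO and 2.19% in E47KO had an unadjusted p under 0.05. Neural bHLH partners of E proteins were called in neither knockout (0 of 7 tested in each, of 14 listed, by edgeR QL or DESeq2, and 1 in each at an unadjusted p under 0.05). The most abundant, the oligodendrocyte lineage factors Olig1 and Olig2, were at -0.10 and -0.17 in E12KO and at 0.06 and -0.01 in E47KO on the log2 scale. Of the Hes and Hey repressors, which Id proteins are known to bind, 0 of 7 tested were called in either line by either tool, with 2 in E12KO and 1 in E47KO at an unadjusted p under 0.05. Hes5, the most abundant of them, was at -0.03 in E12KO and 0.70 in E47KO. Their median was 0.15 in E12KO and 0.54 in E47KO, beside 0.00 and -0.01 over all genes. In E47KO replicate 2, the library with the most Id transcripts, they summed to 1442 CPM, against 601 to 859 CPM in the other 11 libraries, and the 12 astrocyte markers to 2013 CPM against 929 to 1490. The 10 oligodendrocyte lineage markers were also highest there, at 518 CPM against 227 to 417, and the 12 neuron markers lowest, at 1116 CPM against 1169 to 1454. The part of that library's makeup in its Id levels was not tested.

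The BMP pathway, a well known inducer of Id genes, gave no called gene in either line with edgeR QL or DESeq2. At an unadjusted p under 0.05 stood 1 ligand and 1 target in E12KO and 1 inhibitor in E47KO. Over all genes tested, 8.96% in E12KO and 2.19% in E47KO had such a p. Of the ligands, 5 of 13 listed were tested, with Bmp7 at 106 ± 13.2 CPM in E12KO and 133 ± 6.94 CPM in E12wt, a log2 fold change of -0.33 ± 0.09 without overlap (edgeR QL, BH-adjusted p = 0.507). Bmp7 was at -0.56 ± 0.39 in E47KO, with overlap. Bmp1, a protease named with the ligands, was at 0.02 and 0.21 in E12KO and E47KO. Medians of the receptors (6 tested) were -0.08 and -0.12, with the type I receptor gene Bmpr1a at -0.04 and -0.11. The Smad signal carriers (4 tested) had medians of 0.02 and 0.02, with Smad5 at 0.19 in E12KO and -0.19 in E47KO and Smad4 at -0.07 and 0.05. Inhibitors of the pathway (13 tested) had medians of 0.03 and 0.04, with Ski at 0.10 and 0.07. BMP targets other than the Id genes (8 tested) had medians of 0.14 and 0.17, with Hey1 at 0.18 and 0.26 and Hes1 at 0.13 and 0.32.

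The CDK inhibitor genes, which E proteins are known to activate and Id proteins to hold back, were called in neither line by edgeR QL (0 of 6 tested, with 2 in E12KO and 0 in E47KO at an unadjusted p under 0.05). Such a p was seen for 8.96% of all genes in E12KO and 2.19% in E47KO. Cdkn1c, which encodes p57, was at 5.30 ± 0.438 CPM in E12KO and 8.32 ± 1.05 CPM in E12wt, without overlap. Its log2 fold change was -0.64 ± 0.14 (edgeR QL, BH-adjusted p = 0.418), and DESeq2 called it (BH-adjusted p = 0.0204). Loss of E47 left it at 9.06 ± 6.10 CPM in E47KO and 6.26 ± 2.18 CPM in E47wt, with overlap. Cdkn1a, which encodes p21, was at 0.40 ± 0.13 in E12KO and -0.27 ± 0.21 in E47KO, and Cdkn1b, which encodes p27, at -0.11 ± 0.08 and 0.19 ± 0.14 on the log2 scale, none of them called by either tool.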

How the data were processed

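RNA was sequenced from 12 libraries of mouse neural stem cells, 3 in each of 4 groups taken from the sample titles. For every library the authors deposited read counts per gene, unnormalized, in STAR's layout. STAR 2.5, build mm9, DESeq2 and DESeq are named in the submitters' processing notes; which gene annotation was used is not given in these sources. The column for the opposite strand was used, with 97.1 to 97.2% of strand-assigned reads. Per the file headers, the authors' comparison table for each line has a normalized signal per library, a log2 fold change, a score (that change over its error) and a p-value, raw and adjusted.

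Gene names came from Ensembl IDs (32907 of 37620 named). Counts were tested in R 4.3.3 with edgeR 4.0.16 (low-count filter, TMM normalization, QL F test, two-sided, BH adjustment over all genes tested, called under 0.05), each line in its own 6 libraries, the interaction in all 12. The SE is the fold change over the root of F, and the 95% interval uses the fit's degrees of freedom. CPM are TMM-scaled over 12 libraries, and log2 CPM have a prior count of 2. DESeq2 1.42.0 was run beside it. Other alternatives were RLE normalization, no filter, counts of both strands, all 12 libraries in the fit, a replicate block, sex as a covariate in the E47 line, and each library left out in turn. Scripts were checked on simulated data with larger fold changes than those fitted for the Id genes, which does not measure the power to find the latter. Intervals and floors cover counting error or the spread of these libraries only.

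The Id genes and the gene lists were chosen with earlier results of these data known. The rule names the 4 Id genes, the 3 E protein genes and Cdkn1c, the called or 2 most abundant tested members of each list, and the 3 genes most like each Id gene. Some that it names are not reported here. The mix of Id transcripts, Igf2 and Tdg fall outside it.

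Replicate numbers recur across groups without a stated meaning. Deviations from the group means over genes of at least 1 CPM correlated between same-numbered libraries at 0.244, 0.264 and 0.557 in the E47 line, where the numbers were taken to pair the libraries, and at 0.136, 0.0828 and -0.0228 in the E12 line, where they were not. The main fits left this pairing out in both lines and in the interaction. Their E47 errors and intervals therefore include spread that paired libraries share, and the pairing enters only as the replicate block among the alternatives.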

Additional observations from a re-analysis of the deposited data

How the results depend on the processing

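The Id2 difference between E12KO and E12wt kept its direction in every alternative and its call depended on the tool. It was -0.46 with DESeq2 and -0.46 with DESeq2 without the low-count filter (BH-adjusted p = 0.000335 and 0.000619), and DESeq2 without 1 library gave -0.48, -0.48 and -0.42 (without E12wt replicates 1, 2 and 3) and -0.52, -0.42 and -0.43 (without E12KO replicates 1, 2 and 3), called in each. No edgeR alternative called it. The DESeq2 fits without the filter or without a library were chosen after seeing the data.

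Genes called in E12KO numbered 6, but 20 without the filter, 76 with DESeq2, 95 with DESeq2 without the filter, 2 with all 12 libraries in the fit, and 2 to 10 without 1 library (10 without E12wt replicate 3, and 2 without E12KO replicate 2 or 3). In E47KO they numbered 2, but 12 with DESeq2, 5 with DESeq2 without the filter, 1 with sex as a covariate, and 0 to 7 without 1 library (7 without E47wt replicate 2, 1 without E47KO replicate 1 or E47wt replicate 1, and 0 without E47wt replicate 3). For the difference between the effects they numbered 0, but 1 with DESeq2, with or without the filter, and 0 to 1 without 1 library (1 without E47wt replicate 2). Between the wild types they numbered 0, but 7 with DESeq2, 6 with DESeq2 without the filter and 1 with all 12 libraries. The cause of these differences was not tested.

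Leaving out 1 library moved the log2 difference across 0 for several genes. In E12KO it ran from -0.28 to 0.066 for Id1, -0.075 to 0.51 for Id3, -0.069 to 0.063 for Tcf12, -0.0086 to 0.060 for Bmp1, -0.19 to 0.025 for Olig1, -0.31 to 0.12 for Olig2, -0.15 to 0.10 for Hes5 and -0.040 to 0.32 for Hey1. In E47KO it ran from -0.26 to 0.59 for Id1, -0.69 to 0.15 for Id2, -0.058 to 0.78 for Id3, -0.13 to 0.050 for Tcf4, -0.14 to 0.91 for Cdkn1c, -0.0083 to 0.34 for Bmp1, -0.064 to 0.21 for Olig1, -0.26 to 0.28 for Olig2 and -0.011 to 0.56 for Hey1. For the difference between the effects it ran from -0.70 to 0.13 for Id1, -0.60 to 0.23 for Id2 and -0.53 to 0.29 for Id3, and between the wild types from -0.19 to 0.39 for Id1, -0.077 to 0.27 for Id2 and -0.41 to 0.18 for Id3. None of these values was called.

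With sex as a covariate Id1 turned to -0.21, Olig2 to 0.30 and Hey1 to -0.061 in E47KO. Tcf12 in E12KO lay at 0 to within rounding: -0.0013 with RLE normalization, -0.0013 with DESeq2, -0.0031 without the filter, -0.00082 with both strands counted, -0.0029 with all 12 libraries and -0.0029 with DESeq2 without the filter. With the replicate number as a block, Id2 was at -0.35 in E47KO (edgeR QL, BH-adjusted p = 0.866) and the difference between the effects of Id3 turned to 0.080. Pairing the libraries changed no other direction and no call of an Id gene.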
